A study of Mus musculus with 45 samples.

Results

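*Col9a2*, *Nptx1*, *Hmx1* and *Fam83a* are 4 of the 39179 genes counted in the livers of mice given the dioxin TCDD. They were chosen by their measured read counts, which were near 0 in vehicle livers and strongly raised at 30 µg/kg, so the levels of those 2 groups describe the choice and carry no test. The livers came from 45 female C57BL/6 mice, 5 in each of 9 groups, and each mouse was gavaged every 4 days for 28 days, beginning on postnatal day 28 according to the methods. The vehicle group received sesame oil, and the 8 other groups TCDD at 0.01, 0.03 or 0.1 µg/kg, at 0.3 or 1 µg/kg, or at 3, 10 or 30 µg/kg. The sample labels also carry the word daily and describe the mice as ovariectomized, which the methods do not mention. Every tested comparison was made among the 35 livers of 0.01 to 10 µg/kg, which the choice of the genes did not use.

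TCDD binds the aryl hydrocarbon receptor (AhR), a ligand-activated transcription factor that pairs with ARNT in the nucleus and binds dioxin response elements (DREs) near its target genes. In the liver the best known targets are the cytochromes P450 *Cyp1a1*, *Cyp1a2* and *Cyp1b1* and the feedback ADP-ribosyltransferase *Tiparp*. The 4 genes are known for their work in other tissues. *Col9a2* encodes a chain of type IX collagen, which coats the collagen fibrils of cartilage. *Nptx1* encodes a secreted neuronal pentraxin that clusters AMPA receptors at synapses. *Hmx1* encodes a homeobox transcription factor of the developing eye and ear. *Fam83a* encodes a member of the FAM83 family, whose shared domain binds casein kinase 1.

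The genes lie on 4 chromosomes of GRCm38. *Col9a2* (ENSMUSG00000028626) spans chr4:121039385-121055322 on the plus strand, and *Nptx1* (ENSMUSG00000025582) spans chr11:119538719-119547753 on the minus strand. *Hmx1* (ENSMUSG00000067438) spans chr5:35389108-35399730 and *Fam83a* (ENSMUSG00000051225) spans chr15:57985419-58011009, both on the plus strand. Their exons cover 3095 bases in *Col9a2*, 5217 in *Nptx1*, 1588 in *Hmx1* and 3171 in *Fam83a*. No annotated gene overlaps the exons of *Col9a2*, *Nptx1* or *Fam83a*. The exons of *Hmx1* are overlapped on the minus strand by 4930442P19Rik, which is not among the genes counted, and the library kit did not mark strand, so reads from the 2 cannot be told apart. Of the 50-base stretches of the *Hmx1* exons, 8.19% occur in 4930442P19Rik too, and 1.44% of those of *Fam83a* occur in other transcripts.

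Bases upstream of the start were found in the RefSeq promoter table (GRCm38.p6) for 2 of the 4 genes, *Col9a2* and *Hmx1*, and are shown because these genes rose over the same doses. The stretches are chr4:121039316-121039384 and chr5:35388611-35388860, both on the plus strand and written 5′ to 3′, with capitals marking the GC box (GGGCGG on either strand, overlapping matches counted). The *Col9a2* stretch holds the 69 bases that precede its start in both annotations.
Col9a2: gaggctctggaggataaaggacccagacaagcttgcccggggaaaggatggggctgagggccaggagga
Hmx1: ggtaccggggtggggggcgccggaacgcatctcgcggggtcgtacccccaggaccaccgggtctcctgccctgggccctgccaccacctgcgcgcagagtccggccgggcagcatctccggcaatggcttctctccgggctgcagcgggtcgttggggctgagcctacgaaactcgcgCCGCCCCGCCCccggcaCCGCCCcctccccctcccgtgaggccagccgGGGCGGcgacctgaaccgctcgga
The *Hmx1* stretch had a GC content of 75.6%, with 29 CpG dinucleotides and 4 GC box matches. The shorter *Col9a2* stretch had a GC content of 62.3%, with 1 CpG and 0 GC box matches, and the full 250 bases before its RefSeq start held 2 GC box matches. The core of the DRE, GCGTG on either strand, had 0 matches in the 250 bases before the RefSeq start of either gene. Over the 32851 promoters in the table, 28.2% held that core and 32.7% held a GC box within 250 bases upstream of the start.

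Reads on genes ranged from 11767284 to 56509899 per liver, with a median of 17225047, and levels are given as CPM, the counts scaled to library size after TMM normalization. 1 library stood apart. Mouse L24, a 0.01 µg/kg liver with 47411128 reads on genes, had 1.54 CPM of *Col9a2* (74 reads) against 0 to 0.0325 CPM in the other 4 livers of its group. It had 3.28 CPM of *Nptx1* (157 reads) against 0.140 to 0.552, 0.0418 CPM of *Hmx1* (2 reads) against 0 reads, and 0.793 CPM of *Fam83a* (38 reads) against 0.0597 to 0.482. *Cyp1a1* was at 69.7 CPM in L24 and at 1.18 to 4.54 CPM in the other 4, and *Cyp1b1* at 17.5 CPM and 0.239 to 0.974 CPM. All 4 genes were therefore highest in L24 within that group. Macrophage and leukocyte markers moved with it, since the summed level of *Ptprc*, *Cd68*, *Adgre1*, *Lyz2* and *Itgam* was 273 CPM in L24, 43.6 to 66.7 CPM in the other 4 and 32.5 to 169.8 CPM in all 44 other livers. Their part in the levels of L24 was not tested, nor was whether its library holds RNA from another liver. The slope, the comparisons with 0.01 µg/kg and the correlations that include that dose were therefore also run without L24.

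**Figure D1:**
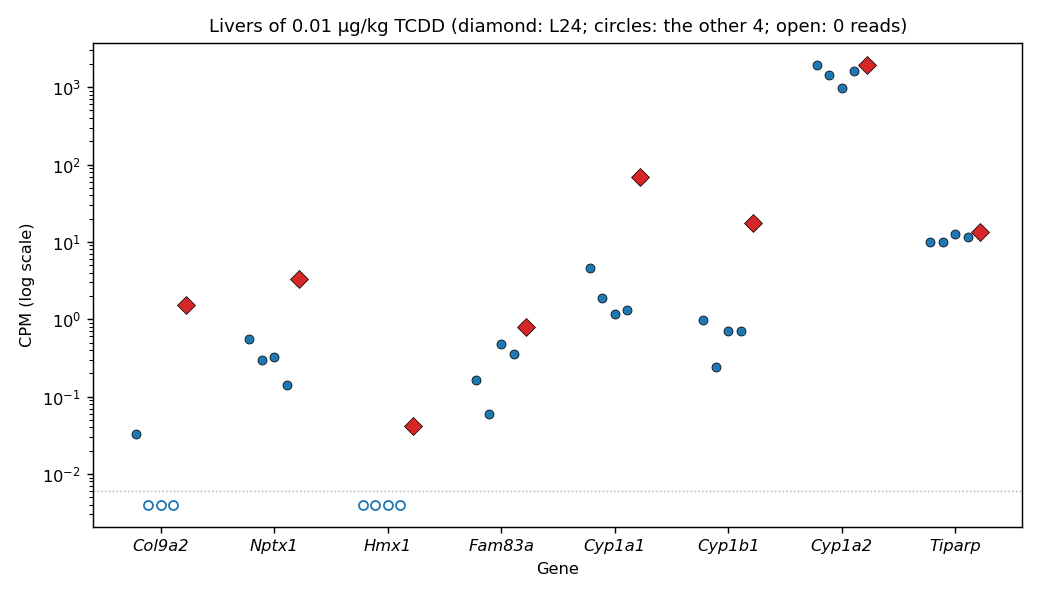
CPM (log scale) of the 4 genes and of *Cyp1a1*, *Cyp1b1*, *Cyp1a2* and *Tiparp* in the 5 livers of 0.01 µg/kg TCDD, with L24 as a diamond, the other 4 livers as circles and open circles for 0 reads. L24 lies above the other 4 livers for *Col9a2*, *Nptx1*, *Hmx1*, *Fam83a*, *Cyp1a1*, *Cyp1b1* and *Tiparp*, but not for *Cyp1a2*.

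*Col9a2*, the cartilage collagen gene, had 1, 0, 0, 1 and 1 reads in the 5 vehicle livers. It stayed at 0 or 1 reads per liver at 0.01 µg/kg apart from L24, and at 0.03, 0.1 and 0.3 µg/kg. At 1 µg/kg the livers had 1, 10, 4, 2 and 3 reads. Reads were thus present in each of the 5 livers from 1 µg/kg upward. At 3 µg/kg the livers had 14, 55, 36, 21 and 34 reads, or 1.02, 1.14, 1.26, 1.35 and 1.09 CPM. At 10 µg/kg they had 712, 515, 877, 313 and 1566 reads, or 23.1, 27.1, 55.6, 13.6 and 54.96 CPM. At 30 µg/kg they had 2103, 1739, 3484, 3083 and 1064 reads, or 94.8, 99.5, 123, 172 and 85.3 CPM. The livers of these 3 doses did not overlap, and the level was 1.02% of its 30 µg/kg mean at 3 µg/kg and 30.4% at 10 µg/kg.

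*Nptx1*, the synaptic pentraxin gene, was the earliest of the 4 to rise. Vehicle livers had 1, 0, 2, 12 and 6 reads, the livers of 0.01 µg/kg had 17, 5, 6 and 2 reads beside the 157 of L24, and those of 0.03 µg/kg had 7, 9, 10, 10 and 3 reads. At 0.1 µg/kg the livers had 8, 33, 48, 13 and 36 reads, or 0.711, 2.02, 2.80, 0.625 and 0.683 CPM, so 2 of the 5 stood above the rest. At 0.3 µg/kg the levels were 9.49, 10.96, 13.9, 9.42 and 9.69 CPM, above every liver of 0.1 µg/kg. At 1 µg/kg they were 33.7, 79.2, 33.0, 34.4 and 30.0 CPM, and the high liver, mouse L53, came from a library of 34079983 reads on genes. The level in L53 lay within the range of the 3 µg/kg livers, which had 79.9, 90.1, 97.0, 75.9 and 77.5 CPM. At 10 µg/kg the levels were 204, 137, 180.5, 156 and 116 CPM, and at 30 µg/kg 309.6, 193, 217, 199 and 254 CPM. The livers of 10 µg/kg all stood above those of 3 µg/kg, while 10 and 30 µg/kg overlapped.

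*Hmx1*, the homeobox gene, had 0 reads in all 5 vehicle livers, in the 4 livers of 0.01 µg/kg other than L24, and in every liver of 0.03 and 0.1 µg/kg. A count of 0 over a group allows up to 3 reads, which is a limit for counting error only. At 0.3 µg/kg the livers had 0, 1, 1, 0 and 0 reads, and at 1 µg/kg 1, 1, 2, 0 and 0 reads. At 3 µg/kg all 5 livers had reads, with 3, 14, 6, 8 and 14, or 0.219, 0.290, 0.210, 0.516 and 0.450 CPM. At 10 µg/kg there were 43, 7, 44, 66 and 34 reads, or 1.396, 0.369, 2.79, 2.87 and 1.19 CPM. At 30 µg/kg there were 134, 35, 97, 23 and 79 reads, or 6.04, 2.003, 3.43, 1.28 and 6.33 CPM. Neighbouring doses overlapped from 3 µg/kg upward, through mouse L68 at 10 µg/kg with 7 reads, and through 2 livers at 30 µg/kg that lay within the range of 10 µg/kg.

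*Fam83a*, the casein kinase 1 binding gene, had a few reads at most doses and rose last. Vehicle livers had 0, 3, 2, 2 and 6 reads, and the 4 livers of 0.01 µg/kg other than L24 had 5, 1, 9 and 5 reads. From 0.03 to 3 µg/kg each group mean lay between 0.188 and 0.304 CPM, with 0 to 20 reads in a liver, and the groups overlapped. At 10 µg/kg the livers had 49, 7, 18, 30 and 46 reads, or 1.59, 0.369, 1.14, 1.31 and 1.61 CPM. At 30 µg/kg they had 145, 174, 227, 72 and 57 reads, or 6.54, 9.96, 8.03, 4.01 and 4.57 CPM. The livers of 30 µg/kg all stood above those of 10 µg/kg, and at 10 µg/kg mouse L68, which also had the lowest *Hmx1*, lay within the range of 3 µg/kg.

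**Figure D2:**
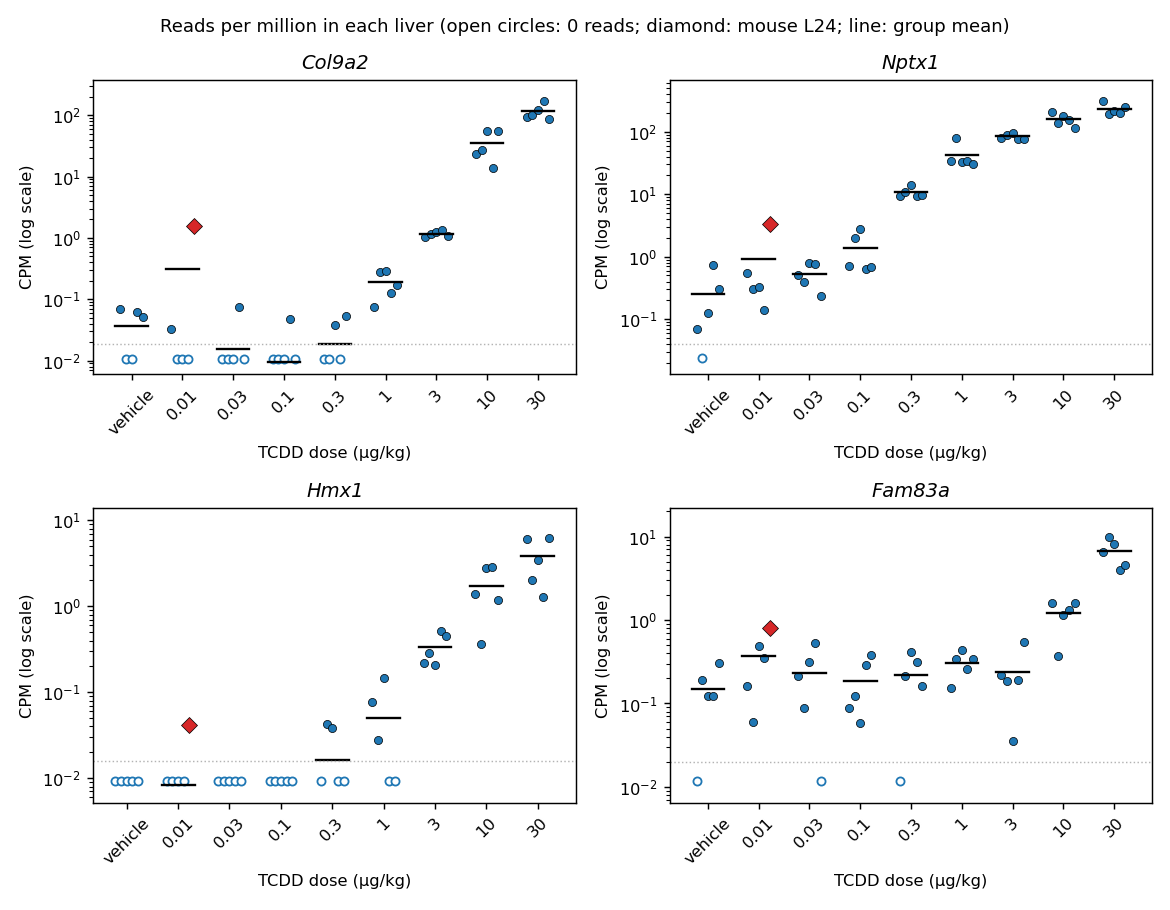
CPM (log scale) in each liver by TCDD dose, 1 panel per gene, with the group mean as a line, 0 reads as open circles under the dotted line and L24 as a diamond. *Nptx1* climbs from 0.3 µg/kg, *Col9a2* and *Hmx1* from 1 to 3 µg/kg, and *Fam83a* stays between 0.188 and 0.304 CPM on average from 0.03 to 3 µg/kg before it stands at 1.20 CPM at 10 µg/kg and 6.62 CPM at 30 µg/kg.

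The values that chose the genes were as follows. *Col9a2* stood at 0.0366 ± 0.0342 CPM in vehicle livers and 115 ± 34.7 CPM at 30 µg/kg (SD, n = 5), a ratio of 3189 with a 95% exact counting interval of 1091 to 15468 because the vehicle livers held 3 reads in all. *Nptx1* stood at 0.248 ± 0.298 and 235 ± 48.1 CPM, a ratio of 919 (601 to 1484). *Hmx1* was at 0 in the vehicle livers and at 3.82 ± 2.30 CPM at 30 µg/kg, at least 102-fold higher with the vehicle group set to 3 reads. *Fam83a* stood at 0.148 ± 0.111 and 6.62 ± 2.46 CPM, a ratio of 43.3 (25.2 to 81.8). In the same comparison 8.03% of the 17464 genes fitted rose by at least 2-fold with an adjusted p under 0.05. These intervals cover counting error only. In bulk liver RNA a gene carried by fewer cells and a gene with less RNA per cell cannot be told apart, at any dose.

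Per kilobase of exon, which allows levels to be compared between genes, *Nptx1* was highest at 30 µg/kg with 44.97 ± 9.22 CPM per kb, followed by *Col9a2* with 37.1 ± 11.2, *Hmx1* with 2.40 ± 1.45 and *Fam83a* with 2.09 ± 0.775 (SD, n = 5). The livers of *Nptx1* (37.1 to 59.3) and *Col9a2* (27.6 to 55.5) overlapped, as did those of *Hmx1* (0.807 to 3.99) and *Fam83a* (1.27 to 3.14). At 10 µg/kg *Nptx1* (22.3 to 39.02 CPM per kb) lay above *Col9a2* (4.40 to 17.96) in every liver, while *Hmx1* (0.232 to 1.81) and *Fam83a* (0.116 to 0.509) still overlapped. The 3 µg/kg means were 16.1 ± 1.74 CPM per kb for *Nptx1* and 0.379 ± 0.0429 for *Col9a2*. On the same scale *Cyp1a1* stood at 2737 ± 426 at 30 µg/kg.

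The share of the 30 µg/kg mean reached at lower doses ordered the 4 genes differently from their level. At 1 µg/kg *Nptx1* stood at 17.9% of it, *Fam83a* at 4.598%, *Hmx1* at 1.31% and *Col9a2* at 0.165%. In vehicle livers *Fam83a* already stood at 2.24%, *Nptx1* at 0.106%, *Col9a2* at 0.0319% and *Hmx1* at 0%. The *Fam83a* shares include that baseline. The shares at 3 µg/kg were 35.8% for *Nptx1*, 8.83% for *Hmx1*, 3.57% for *Fam83a* and 1.02% for *Col9a2*, beside 76.7% for *Cyp1a1* and 32.4% for *Cyp1b1*. At 10 µg/kg *Nptx1* was at 67.7%, *Hmx1* at 45.1%, *Col9a2* at 30.4% and *Fam83a* at 18.2%, beside 87.2% for *Cyp1a1* and 57.9% for *Cyp1b1*. *Cyp1a1* was thus nearer to its 30 µg/kg level than any of the 4 genes at 1, 3 and 10 µg/kg. These shares use the 30 µg/kg livers and carry no test.

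**Figure D3:**
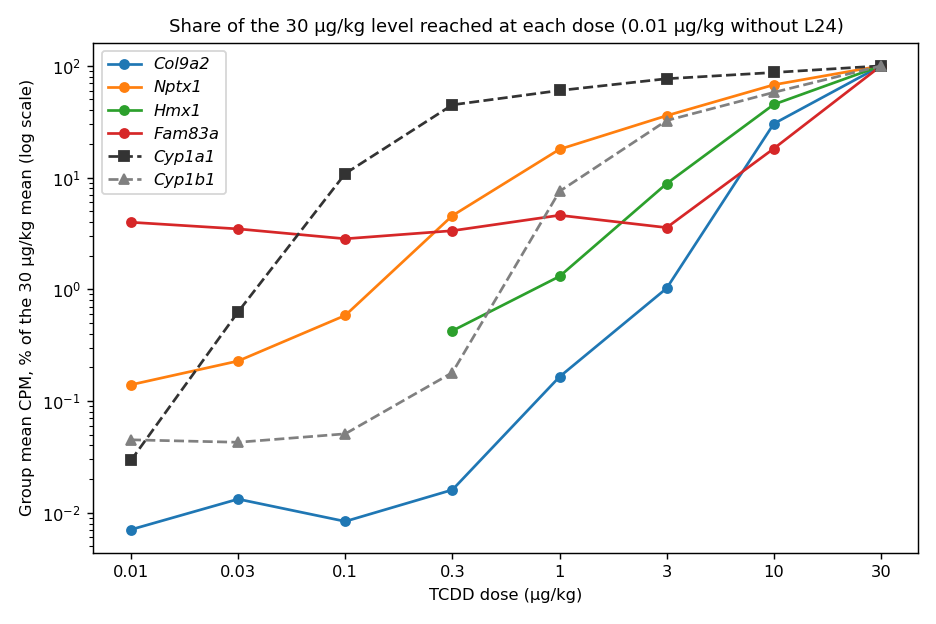
Group mean CPM as a percent of the 30 µg/kg mean (log scale) by TCDD dose for the 4 genes, *Cyp1a1* and *Cyp1b1*, with the 0.01 µg/kg mean taken without L24 and groups at 0 left out. At 3 µg/kg *Cyp1a1* is at 76.7%, *Nptx1* at 35.8%, *Hmx1* at 8.83%, *Fam83a* at 3.57% and *Col9a2* at 1.02%.

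Dose dependence was tested as a slope on log10 dose over the 35 livers of 0.01 to 10 µg/kg with edgeR's quasi-likelihood test, adjusted over the 17365 genes with more than 4 reads in any of them. All 4 genes passed that filter, *Hmx1* through its 3 and 10 µg/kg livers only. Its slope, its calls against 0.01 µg/kg and its step from 1 to 3 µg/kg thus rest on a filter met where it was high. Among all genes tested 12.1% rose with dose at an adjusted p under 0.05, and 2105 genes rose and 2150 fell. Without TMM the counts were 3186 and 1187. The slope of *Col9a2* was 2.91 ± 0.34 (SE) on the log2 scale per 10-fold dose, with an edgeR adjusted p of 1.57e-08. *Nptx1* had a slope of 2.82 ± 0.17 (adjusted p = 5.42e-16) and *Hmx1* of 3.58 ± 0.23 (adjusted p = 6.80e-15). *Fam83a* had a slope of 0.53 ± 0.17 (adjusted p = 0.0187), its call being lost without mouse L66 (adjusted p = 0.0718) or mouse L72 (adjusted p = 0.0743). Without L24 the slopes were 7.30 for *Col9a2*, 3.24 for *Nptx1*, 4.18 for *Hmx1* and 0.78 for *Fam83a*, all past the threshold. *Col9a2* then also met the read filter only in livers of 1, 3 and 10 µg/kg, the doses at which it was high. Its slope and its calls without L24 rest on that filter. For comparison, *Cyp1a1* had a slope of 2.94 ± 0.40 and *Tiparp* of 0.98 ± 0.09.

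Against 0.01 µg/kg, all 4 genes were higher at 10 µg/kg, a call that needs an adjusted p under 0.05 and a fold of at least 2 and that 3.02% of genes met in that direction (4.32% without L24). Over all genes 524 were higher and 334 lower, and without TMM 645 and 257. The livers of 10 µg/kg lay above all 5 livers of 0.01 µg/kg for *Col9a2*, *Nptx1* and *Hmx1*, and overlapped them for *Fam83a*. *Col9a2* went from 0.315 ± 0.687 to 34.9 ± 19.3 CPM (SD, n = 5), with a log2 fold change of 6.20 ± 0.55 (SE, edgeR adjusted p = 2.78e-10). Without L24 the 0.01 µg/kg livers held 1 read of *Col9a2*, which then entered the test through its high livers only. The ratio without L24 was 2740 with a counting interval of 491 to 108244. *Nptx1* went from 0.918 ± 1.33 to 159 ± 34.4 CPM, with a log2 fold change of 7.08 ± 0.48 (adjusted p = 3.86e-13) and of 8.75 ± 0.43 without L24. *Hmx1* went from 0.00835 ± 0.0187 to 1.72 ± 1.08 CPM, from 2 to 194 reads in all, a ratio of 106 with a counting interval of 29.1 to 885 (edgeR adjusted p = 1.88e-07). Without L24 *Hmx1*, which entered the test through its high livers, had 0 reads at 0.01 µg/kg and was at least 44.5-fold higher at 10 µg/kg. Exact permutation tests of the 5 livers against 5, two-sided, gave p = 0.00794, the smallest they can give, for *Col9a2*, *Nptx1* and *Hmx1*. Without L24 they gave 0.0159 for each, the smallest p of 5 livers against 4.

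*Fam83a* went from 0.370 ± 0.288 CPM at 0.01 µg/kg to 1.20 ± 0.507 CPM at 10 µg/kg, which was a log2 difference of 1.59 ± 0.51 (SE, edgeR adjusted p = 0.0296) and of 2.24 ± 0.57 without L24 (adjusted p = 0.00549). The exact permutation test gave p = 0.0238, and 0.0317 without L24. The edgeR call was lost when any of 6 other livers was left out, with an adjusted p of 0.0886 without L18, 0.0790 without L21, 0.0541 without L23, 0.0672 without L66, 0.0509 without L71 and 0.0754 without L72. With only the 10 livers of the 2 doses in the fit it was 0.0567. The rise of *Fam83a* at 10 µg/kg therefore lay close to the threshold, unlike those of the other three genes, which passed under every alternative that tested them.

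At 3 µg/kg against 0.01 µg/kg, a comparison that shares the 0.01 µg/kg livers, 2 of the 4 genes were called higher beside 1.45% of all genes, and without L24 3 of the 4 beside 2.7%. *Nptx1* was higher by 6.16 ± 0.46 on the log2 scale (SE, edgeR adjusted p = 1.27e-11). *Hmx1* went from 2 to 45 reads, a ratio of 21.1 with a counting interval of 5.50 to 179 (adjusted p = 0.00214), and at least 8.81-fold higher without L24. *Col9a2* was at 1.17 ± 0.133 CPM at 3 µg/kg, where every liver lay below the 1.54 CPM of L24 and above the other 4 livers of 0.01 µg/kg. Its log2 difference of 1.32 ± 0.56 was not called (edgeR adjusted p = 0.189). Without L24 it was called (edgeR adjusted p = 9.87e-07), with a ratio of 93.9 and a counting interval of 16.6 to 3733 over 1 read. That call rests on a read filter that *Col9a2* then met only at 1, 3 and 10 µg/kg. *Fam83a* was at 0.236 ± 0.188 CPM at 3 µg/kg, a log2 difference of −0.73 ± 0.58 (adjusted p = 0.554) and of −0.08 ± 0.66 without L24.

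At the lower doses *Nptx1* was the member that passed. Against 0.01 µg/kg it was higher at 0.3 µg/kg by 3.19 ± 0.43 (SE) on the log2 scale (edgeR adjusted p = 3.36e-05, beside 0.138% of all genes called higher) and at 1 µg/kg by 5.17 ± 0.45 (adjusted p = 7.66e-10, beside 0.587%). Without L24 these were 4.86 ± 0.42 (beside 0.105% of genes) and 6.84 ± 0.42 (beside 0.598%). At 0.1 and at 0.03 µg/kg 0 of the 4 genes passed with edgeR or DESeq2, beside 0.0173% and 0% of all genes, and in each case 1 of the 4 had an unadjusted p under 0.05 with either tool. That gene was *Col9a2*, with 1 read in all at each of these doses against the 75 reads of the 0.01 µg/kg livers, of which L24 held 74. Without L24 0 of the 4 passed at either dose, where 0.0232% and 0.00581% of genes were called, and *Nptx1* at 0.1 µg/kg had an unadjusted p under 0.05 (log2 difference of 1.81 ± 0.49, adjusted p = 0.653).

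The steps between neighbouring doses from 0.03 µg/kg upward were tested next. They do not compare any dose with the 0.01 µg/kg livers. Those livers, L24 among them, still shared in the normalization and in the estimate of the spread. The steps were not rerun without L24, so its effect on their SE and adjusted p was not tested. From 0.03 to 0.1 µg/kg 0 of the 4 passed with edgeR or DESeq2, beside 0.00576% of genes, and *Nptx1* was the 1 gene with an unadjusted p under 0.05 (1.303 ± 0.64, adjusted p = 0.935). *Nptx1* rose from 0.1 to 0.3 µg/kg by 3.05 ± 0.45 on the log2 scale (SE, edgeR adjusted p = 0.000400), where 0.0173% of genes were called higher. It rose again from 0.3 to 1 µg/kg by 1.98 ± 0.37 (adjusted p = 0.0114, beside 0.0864% of genes), a call that was lost without mouse L53 (1.61 ± 0.36, adjusted p = 0.0906), mouse L44 (adjusted p = 0.0504) or mouse L47 (adjusted p = 0.0629). From 1 to 3 µg/kg 0 of the 4 genes passed with edgeR or DESeq2, beside 0.0691% of genes, and 3 of the 4 had an unadjusted p under 0.05 with either tool. In that step the values were 2.48 ± 0.70 for *Col9a2* (adjusted p = 0.313), 2.81 ± 0.74 for *Hmx1* (adjusted p = 0.271) and 0.99 ± 0.35 for *Nptx1* (adjusted p = 0.599). The livers of 1 and 3 µg/kg did not overlap for *Col9a2* or *Hmx1*, and the exact permutation test gave p = 0.00794 for both.

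From 3 to 10 µg/kg 3 of the 4 genes were called higher, beside 0.294% of all genes. *Col9a2* rose by 4.88 ± 0.50 on the log2 scale (SE, edgeR adjusted p = 1.13e-07), from 160 to 3983 reads over the 5 livers. *Hmx1* rose by 2.34 ± 0.45 (adjusted p = 0.00610), from 45 to 194 reads. *Fam83a* rose by 2.32 ± 0.54 (adjusted p = 0.0269), from 33 to 150 reads. The call for *Fam83a* was lost without any 1 of 7 livers, with an adjusted p of 0.0529 without L58, 0.106 without L59, 0.115 without L60, 0.0786 without L63, 0.0845 without L66, 0.0571 without L71 and 0.0876 without L72. *Nptx1* was higher by 0.92 ± 0.35 (adjusted p = 0.356), and its livers did not overlap (exact permutation p = 0.00794). From 10 to 30 µg/kg, as a description, the log2 differences were 1.72 for *Col9a2*, 0.56 for *Nptx1*, 1.15 for *Hmx1* and 2.43 for *Fam83a*, in a step where 0.326% of genes rose.

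**Figure D4:**
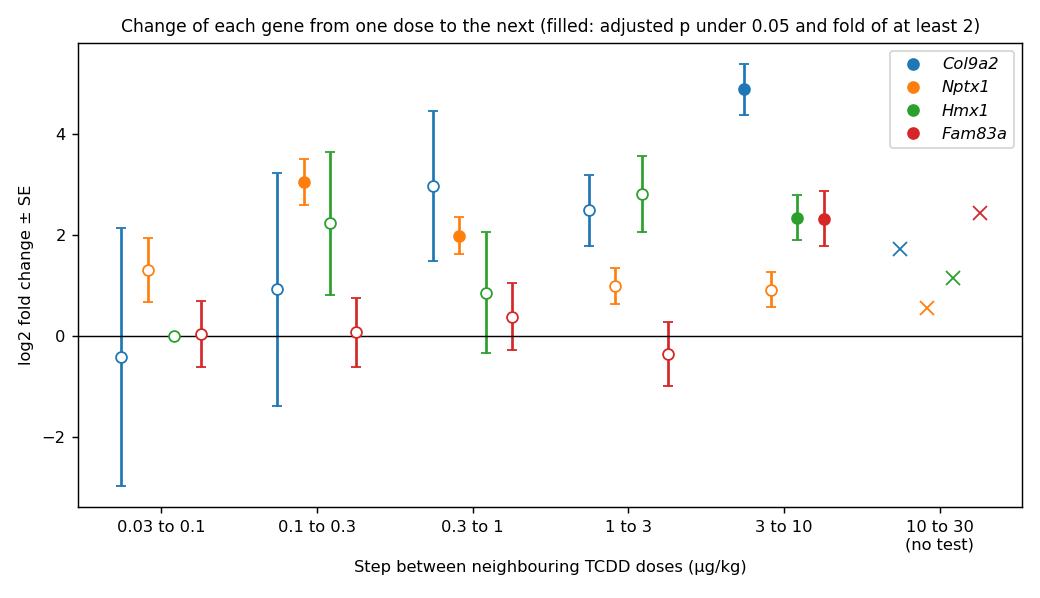
Log2 fold change (points) with its SE (bars) of each gene in each step between neighbouring doses from 0.03 to 10 µg/kg, filled where the edgeR adjusted p is under 0.05 and the fold at least 2, and crosses for the step from 10 to 30 µg/kg, which has no test. *Nptx1* passes in the steps to 0.3 and to 1 µg/kg, and *Col9a2*, *Hmx1* and *Fam83a* pass in the step to 10 µg/kg.

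Whether the genes rose with *Cyp1a1* or beyond it was asked of the ratio of each gene to *Cyp1a1* in the same liver, as log2 of (CPM + 0.1) over (CPM + 0.1). From 3 to 10 µg/kg *Cyp1a1* itself went from 5851 ± 469 to 6654 ± 874 CPM, and its log2 difference of 0.18 ± 0.57 was not called (edgeR adjusted p = 0.969). The ratio of *Col9a2* rose by 4.41, from a mean of −12.2 to −7.76, and that of *Nptx1* by 0.72, from −6.12 to −5.41 (5 livers each, exact permutation p = 0.00794 for both, two-sided and not adjusted over the 4 genes). The ratio of *Fam83a* rose by 1.82 (exact p = 0.0159). The ratio of *Hmx1* rose by 1.66, and its exact p of 0.0317 was not held under 7 alternatives. It was 0.0556 with 0.5 in place of 0.1 CPM, and 0.0635 without any 1 of the livers L58, L60, L66, L70, L71 and L72. With 5 livers against 4 the smallest p this test can give is 0.0159. All 4 ratios were thus higher at 10 than at 3 µg/kg, with no overlap of the livers for *Col9a2* and *Nptx1*. This was not particular to the 4 genes. The mean ratio of *Cyp1b1* to *Cyp1a1* went from −3.64 to −2.99, as a description. Its highest value at 3 µg/kg was −3.48 and its lowest at 10 µg/kg −3.20. *Tiparp* was itself called higher in this step (log2 difference of 1.08 ± 0.17, edgeR adjusted p = 0.000339).

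**Figure D5:**
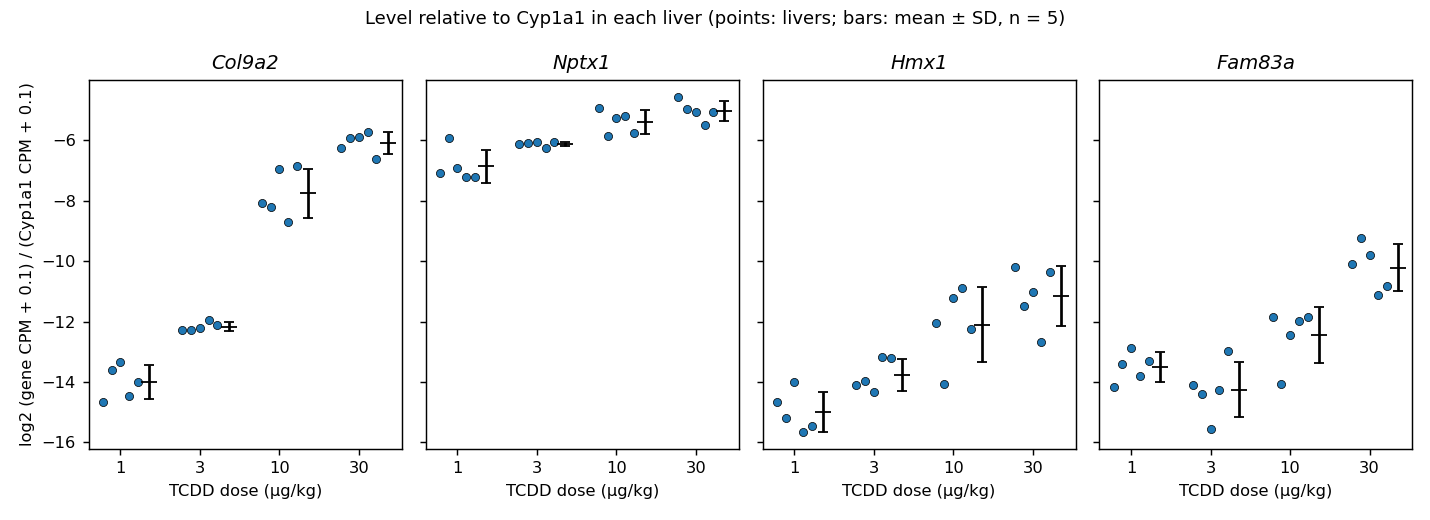
Log2 ratio of each gene to *Cyp1a1* in each liver (points) at 1, 3, 10 and 30 µg/kg, with the mean ± SD of the 5 livers as bars. From 3 to 10 µg/kg the mean ratio goes from −12.2 to −7.76 for *Col9a2* and from −6.12 to −5.41 for *Nptx1*, without overlap of the livers.

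At the lower doses, where no test of the ratio was run, the mean ratio of *Nptx1* to *Cyp1a1* was −6.24 at 0.03 µg/kg and −9.34 at 0.1 µg/kg. *Cyp1a1* itself went from 47.9 ± 17.99 CPM at 0.03 µg/kg to 828 ± 283 at 0.1 µg/kg and 3415 ± 766 at 0.3 µg/kg. For *Nptx1* the mean ratio was −8.30 at 0.3 µg/kg and −6.87 at 1 µg/kg. *Cyp1a1* was called higher between 0.03 and 0.1 µg/kg (log2 difference of 4.11 ± 0.65, edgeR adjusted p = 0.00712), 1 step before *Nptx1* was. That was the first step tested. At 0.03 µg/kg *Cyp1a1* already stood at 25.3 to 71.8 CPM, above the 1.34 to 16.6 CPM of the vehicle livers. L24 was at 69.7 CPM, and the other 4 livers of 0.01 µg/kg at 1.18 to 4.54 CPM.

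Livers that were high in *Cyp1a1* for their dose were compared with livers high in each gene, as deviations of log2 CPM (prior count of 2) from the group mean over the doses at which all 5 livers had reads. 4 such relations were computed, and their p-values come from 100000 permutations within doses and are not adjusted. For *Nptx1*, Pearson's r was 0.72 and Spearman's rho 0.44 over 35 livers (permutation p = 0.0191 and 0.0298). The r was 0.45 without the 2 livers farthest from the median of *Cyp1a1*, and 0.30 without L24 (permutation p = 0.192), so the relation rested on that liver. For *Col9a2* r was 0.16 and rho 0.09 over 15 livers (permutation p = 0.694 and 0.783), with an r of −0.06 without the 2 farthest livers. For *Hmx1* r was −0.69 and rho −0.61 over 10 livers (permutation p = 0.0713 and 0.0899), and the r was −0.10 without the 2 farthest livers. For *Fam83a* r was 0.21 and rho −0.38 over 25 livers (permutation p = 0.561 and 0.113), and without the 2 farthest livers r was −0.10. Leaving out L24 turned it to an r of −0.47 and a rho of −0.70 (permutation p = 0.0467 and 0.000410). The sign of Pearson's r for *Fam83a* thus also turned on L24, while rho was negative with and without it. The 5 vehicle livers helped to choose the genes and carry no test. They had 41, 21, 89, 269 and 220 reads of *Cyp1a1* and 1, 0, 2, 12 and 6 reads of *Nptx1*, in the same order. *Fam83a*, with 0, 3, 2, 2 and 6 reads, and *Col9a2*, with 1, 0, 0, 1 and 1, did not follow that order.

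The 4 genes were also compared with each other within the 3 and 10 µg/kg groups, over 10 livers. The r of the deviations from the dose means lay between −0.24, for *Col9a2* with *Nptx1*, and 0.63, for *Hmx1* with *Fam83a*, as a description over livers that share their library. In the latter pair L68 was lowest for both genes. Among the livers of 10 µg/kg the coefficient of variation was 55.2% for *Col9a2*, 62.7% for *Hmx1*, 42.1% for *Fam83a* and 21.6% for *Nptx1*, beside 13.1% for *Cyp1a1*. The values at 3 µg/kg were 11.3% for *Col9a2* and 10.8% for *Nptx1*.

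The genes whose log2 CPM was most like that of each member over the 35 livers of 0.01 to 10 µg/kg are given as descriptions, since dose orders all of them. For *Col9a2* they were *Msrb3*, a methionine sulfoxide reductase (Pearson's r of 0.95), *Ovol1*, a zinc finger transcription factor (0.95), *Tiparp* (0.94), *Serpinb6a* (0.93) and *Ap5b1* (0.93), and *Hmx1* came sixth with an r of 0.92. For *Hmx1* they were *Ovol1* (0.93), *Msrb3* (0.93), *Dpf3* (0.92), *Col9a2* (0.92) and *Serpinb6a* (0.91). *Ovol1* went from 0.0362 to 5.87 CPM between 0.01 and 10 µg/kg, and *Msrb3* from 10.04 to 42.5 CPM. *Col9a2* and *Hmx1* thus had 3 of their 5 nearest genes in common, of which *Serpinb6a* left the nearest 5 of both without L24. For *Nptx1* the nearest were *Fbxw9* (r of 0.98), *Cyfip2* (0.97), *Insl6* (0.97), *Tuba8* (0.96) and *Tcf4* (0.96). *Cyfip2* went from 1.64 to 57.4 CPM between 0.01 and 10 µg/kg, and *Insl6* from 0.186 to 14.4 CPM. For *Fam83a* the r was lower, at 0.74 for *Slc6a8*, *Patj*, *Slc35f2* and *Ecel1* and 0.72 for *Uap1l1*. Without L24 *Ecel1* and *Uap1l1* left the nearest 5 of *Fam83a*, and the r of *Patj* was 0.81, while all 5 of *Nptx1* stayed. With *Cyp1a1* the r was 0.85 for *Nptx1*, 0.51 for *Hmx1*, 0.49 for *Col9a2* and 0.18 for *Fam83a*.

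No relative or partner of the 4 genes was called higher by edgeR at 10 against 0.01 µg/kg, with or without L24, in 4 lists that leave the members out. A rising slope was found for 2 of 8 homeobox genes tested and 2 of 8 FAM83 and casein kinase 1 genes tested, beside 12.1% of all genes. A falling slope was found for 3 of 7 cartilage genes tested (4 without L24) and 2 of 6 pentraxin and AMPA receptor genes. Over all 17365 genes tested 2150 fell. In the comparison of 10 with 0.01 µg/kg 3.02% of all genes were called higher, and 334 of 17365 lower. Of 15 cartilage collagen and matrix genes, 7 had enough reads to be tested, 0 were called higher (edgeR or DESeq2, and 0 with an unadjusted p under 0.05 in that direction) and 2 were called lower, *Hapln1*, a link protein of cartilage matrix (log2 difference of −3.68 ± 0.73, SE), and *Cnmd*, chondromodulin (−1.94 ± 0.39). Their median log2 difference was −0.57, beside −0.01 over all genes tested. Of 10 pentraxin and AMPA receptor genes, 6 were tested, 0 were called higher (likewise 0 with DESeq2 and 0 with an unadjusted p under 0.05) and 2 lower, *Apcs*, the liver's own serum amyloid P pentraxin (−2.34 ± 0.27), and *Gria3*, an AMPA receptor subunit (−2.004 ± 0.37). The median of this list was −0.13. Of 42 NK-like homeobox genes 8 were tested and 0 called with edgeR or DESeq2, with 1 at an unadjusted p under 0.05 and a median of 0.20. In the slope test *Hlx* (0.22 per 10-fold dose, adjusted p = 0.00662) and *En2* (adjusted p = 0.0332) passed, *En2* on at most 6 reads in a liver and not without L24. Of 10 FAM83 and casein kinase 1 genes 8 were tested and 0 called with edgeR, with 3 at an unadjusted p under 0.05, 1 called with DESeq2 and a median of 0.25. *Fam83f* (0.42, adjusted p = 0.00899) and the kinase gene *Csnk1e* (0.15, adjusted p = 0.00140) passed in the slope test. *Hapln1*, *Cnmd*, *Apcs* and *Gria3* were called lower without L24 too.

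The AhR battery moved in the same comparison. Of its 11 genes 8 were called higher with edgeR, beside 3.02% of all genes tested, and 6 with DESeq2. Their median log2 difference over the 11 genes was 3.00. *Cyp1a1* was higher by 8.66 ± 0.80 (SE), *Cyp1b1* by 7.53 ± 0.67, *Ahrr*, the AhR repressor, by 6.82 ± 0.44, *Cyp1a2* by 3.20 ± 0.15 and *Tiparp* by 3.00 ± 0.19. *Aldh3a1*, an aldehyde dehydrogenase, had 0 reads at 0.01 µg/kg and 32 reads at 10 µg/kg. It met the read filter only at doses above 0.01 µg/kg. Without L24 8 of the 11 genes were again called higher, beside 4.32% of all genes. The log2 difference of *Cyp1a1* was then 11.4 and that of *Cyp1b1* 10.2.

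Several defining markers of cartilage, neurons and stratified epithelium were at or near 0, and others were not. Markers of eye and ear were not examined. *Matn1* and *Matn3* of cartilage, *Snap25* and *Nefl* of neurons and *Krt5* and *Krt6a* of stratified epithelium had 0 reads in all 45 livers, and *Col2a1* and *Acan* had at most 1 read in any liver. The neuron markers *Syt1*, at 31.8 and 32.4 CPM at 0.01 and 10 µg/kg, and *Map2*, at 1.77 and 1.75 CPM, were present at both doses, as was the chondrocyte factor *Sox9*, at 3.00 and 1.68 CPM, which fell in the slope test (−0.27, adjusted p = 0.00269). The summed level of the 7 chondrocyte markers was 1.91 to 8.08 CPM at 0.01 µg/kg and 1.51 to 2.003 CPM at 10 µg/kg. That of the 8 neuron markers was 29.4 to 42.0 and 26.8 to 42.4 CPM, and that of the 7 stratified epithelium markers 0.214 to 0.657 and 0.421 to 0.951 CPM. Each of the 3 sums overlapped between the 2 doses, and 0 of their 7 tested members were called higher (edgeR or DESeq2, with 1 neuron marker at an unadjusted p under 0.05). That marker, *Rbfox3*, was called higher without L24 (1.21 ± 0.36, adjusted p = 0.0160), at 0.958 CPM at 10 µg/kg. The 5 hepatocyte markers summed to 121138 to 160202 CPM at 0.01 µg/kg and 111978 to 134969 CPM at 10 µg/kg, a sum carried by *Alb*. Of these 5, *Apoa1* was called lower (−1.67 ± 0.23, edgeR adjusted p = 2.90e-06), *Cps1* was lower by less than 2-fold (−0.82 ± 0.18, adjusted p = 0.00184), and *Apoa1*, *Cps1* and *Ttr* fell in the slope test, all of this without L24 too. The stellate and fibroblast markers stood at 30.2 to 53.2 CPM summed over 5 genes at 0.01 µg/kg and 45.4 to 102 CPM at 10 µg/kg, which overlapped, and 1 of the 5, *Col1a1*, was called higher (1.23 ± 0.31, edgeR adjusted p = 0.00501). The 5 macrophage and leukocyte markers summed to 43.6 to 273 CPM at 0.01 µg/kg (at most 66.7 CPM without L24) and 60.04 to 97.4 CPM at 10 µg/kg, and 3 of the 5 (*Ptprc*, *Cd68* and *Adgre1*) rose in the slope test without L24, against 0 with it. The 4 endothelial markers summed to 67.5 to 109.7 CPM and 118 to 143 CPM, which did not overlap, and *Pecam1* (0.72 ± 0.18, adjusted p = 0.00584) and *Kdr* (0.76 ± 0.14, adjusted p = 0.000143) were higher by less than 2-fold and rose in the slope test, with and without L24. The part of these markers in the rise of the 4 genes was not tested. The 6 biliary markers summed to 43.2 to 55.5 CPM and 47.8 to 58.8 CPM.

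The nearest protein-coding genes on either side were read for comparison. Of the 14 neighbours with reads 1 was called at 10 against 0.01 µg/kg, where 3.02% of all genes tested were called higher. It was *Adra2c*, an adrenergic receptor gene that lies 107345 bases from *Hmx1* and was higher at 10 µg/kg (edgeR adjusted p = 3.21e-05). *Adra2c* met the read filter only at doses above 0.01 µg/kg. It had 2 reads in all in the vehicle livers, 1 at 0.01 µg/kg, 71 in 5 of 5 livers at 10 µg/kg and 99 in 5 of 5 at 30 µg/kg. The other genes near *Hmx1* were *Lrpap1* at 39.8 and 42.2 CPM, *Cpz* at 0.430 and 0.863 CPM (adjusted p = 0.0701, and called higher without L24 with 1.20 ± 0.37, adjusted p = 0.0223) and *Trmt44* at 1.99 and 2.37 CPM, at 0.01 and 10 µg/kg in that order. Near *Col9a2*, *Smap2* stood at 41.5 and 42.4 CPM, *Zfp69* at 1.16 and 1.94 CPM (adjusted p = 0.0210, under the 2-fold limit) and *Zmpste24* at 102 and 92.6 CPM, and *Tmco2* had 0 reads in every liver. Near *Nptx1*, *Endov*, *Rnf213*, *Rptor* and *Chmp6* had log2 differences between −0.23 and 0.37, the highest being *Endov* (adjusted p = 0.0437, under the 2-fold limit). Near *Fam83a*, *Tbc1d31* and *Gm29394* had differences of −0.24 and 0.08, *Derl1* of 0.47 (adjusted p = 3.01e-06, under the 2-fold limit), and 9130401M01Rik was not analysed here.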

How the data were processed

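Liver RNA was prepared with the Illumina TruSeq RNA kit. According to the methods and the submitters' processing notes, single-end reads of 50 bases were aligned to GRCm38 with TopHat 1.4.1 and counted per Ensembl gene with HTSeq 0.6.1. The deposited values are those raw read counts, 1 file per liver. The strand setting and the sequencing pool of each mouse are not given in the sources used here. Reads that overlapped several genes at 1 place were 1.34% to 2.07% per liver and, like unassigned reads and reads aligned to several places, stayed out of library sizes and tests.

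Counts were tested with edgeR 4.0.16 in R 4.3.3 (TMM, quasi-likelihood test, Benjamini-Hochberg adjustment over all genes with more than 4 reads in any of the 35 livers), with 1 coefficient per dose or a slope on log10 dose. DESeq2 1.42.0 was an alternative. Ratios, exact permutation tests and correlations used Python 3.11.15. Positions and exon lengths come from GENCODE vM21. On simulated counts of 16890 genes, the edgeR test of 10 against 0.01 µg/kg recovered 99% of 4-fold and 100% of 8-fold changes with 11 false calls. The simulation used a common dispersion, changes linear in log10 dose and no outlying liver. It therefore does not cover rises from near 0 in a single step or a liver such as L24.

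The members and gene lists were chosen with earlier results of these data known. Besides the 4 members, the text names *Cyp1a1*, *Cyp1a2*, *Cyp1b1* and *Tiparp*, up to 5 called genes per list by fold, the 2 nearest protein-coding genes on each side and the 5 genes most correlated with each member, and mice named for their values were chosen after these were seen. Precision is lowest where reads are few. The alternatives changed the normalization, filter, livers in the fit, prior count and pseudocount, and left out each liver in turn.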

Additional observations from a re-analysis of the deposited data

Results flagged for a closer look

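In 6 of the 36 groups of 5 livers, 1 liver lay far from the other 4, by its gap to the next liver as a share of the range. This count cannot be set against a chance rate. A group with reads in only 1 liver is always flagged, and a group at 0 never is. 3 of the 6 are mouse L24 at 0.01 µg/kg, with *Col9a2* at 1.54 CPM (next highest 0.0325), *Nptx1* at 3.28 CPM (next highest 0.552) and *Hmx1* at 0.0418 CPM, or 2 reads, where the other 4 livers had 0. The excess of L24 over the mean of the other 4 livers was 1.34% of the 30 µg/kg mean for *Col9a2*, 1.26% for *Nptx1*, 1.09% for *Hmx1*, 0.884% for *Cyp1a1*, 1.16% for *Cyp1b1* and 1.32% for *Tiparp*, and 2.45% for *Cyp1a2* and 8.002% for *Fam83a*. The shares thus differed between the genes. That of *Hmx1* rests on 2 reads, and *Tiparp* was at 13.2 CPM in L24 and at most 12.6 CPM in the other 4 livers. What set these shares was not tested.

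At 1 µg/kg mouse L53 had *Nptx1* at 79.2 CPM (2820 reads), where the next highest liver had 34.4 CPM. In the same liver *Tiparp* was at 23.2 CPM, the highest of its group, while *Cyp1a1* at 4774 CPM lay within the 4001 to 5140 CPM of the group. The remaining cases are single reads of *Col9a2*, at 0.0761 CPM in mouse L30 at 0.03 µg/kg and 0.0480 CPM in mouse L39 at 0.1 µg/kg, in groups where the other livers had 0.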

How the results depend on the processing

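The number of the 4 genes called at 10 against 0.01 µg/kg and in the slope moved by at most 1 under every alternative. filterByExpr removed *Hmx1*, which left 1 gene called at 3 against 0.01 µg/kg in place of 2. With all 40 TCDD livers the slope was called for 7037 genes in place of 4255. Leaving out a liver gave 323 to 636 genes called at 3 against 0.01 µg/kg (389 with all livers), the highest without L24.

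For reads in every liver, scaling to the smallest library moved the first dose from 1 to 3 µg/kg for *Col9a2* and from 1 to 10 µg/kg for *Fam83a*. More than 4 reads moved it to 3 µg/kg for *Col9a2*, from 0.01 to 0.1 µg/kg for *Nptx1*, from 3 to 10 µg/kg for *Hmx1* and to 10 µg/kg for *Fam83a*. Depth limits these doses. The fitted log2 difference of *Hmx1* between 30 µg/kg and vehicle of 9.32 became 6.68 with the vehicle at 3 reads.

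The ratio of *Hmx1* to *Cyp1a1* rose by 1.08 with a pseudocount of 0.5 CPM and by 1.36 to 2.15 with a liver left out. Without L24, which was chosen after seeing the data, Pearson's r with *Cyp1a1* was 0.30 for *Nptx1* and turned to −0.47 for *Fam83a*. The rho of *Fam83a* was −0.38 with L24 and −0.70 without it (permutation p = 0.000410). The cause was not tested. Also without L24, 2 neighbours of the members were called in place of 1, beside 4.32% of all genes called higher in place of 3.02%. The values of the gene and marker lists that changed stand with them. DESeq2 gave over 1.5 times the genes called at 0.1 against 0.01 µg/kg (5 and 3), 0.3 against 0.01 µg/kg (44 and 29), 0.1 to 0.3 µg/kg (9 and 3) and 1 to 3 µg/kg (21 and 13), and called 0 from 0.03 to 0.1 µg/kg in place of 1, while without TMM 5 were called from 0.1 to 0.3 µg/kg. Without TMM the median log2 difference of all genes at 10 against 0.01 µg/kg moved by 0.11, and 645 genes rose and 257 fell in place of 524 and 334. No paired analysis was possible because the labels give no replicate numbers shared between groups.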
